A study of Mus musculus with 8 samples.

Results

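The Ccl3, Ccl4, Ccl5, Ccl6 and Ccl9 genes of the chemokine cluster on mouse chromosome 11 were followed in nascent RNA of macrophages exposed to lipopolysaccharide (LPS), a bacterial outer membrane glycolipid. The members were found by gene symbol in the deposited table, and all 5 listed members were present among 22753 genes. The assay, GRO-seq, is a nuclear run-on followed by sequencing, in which engaged polymerases are allowed to extend their transcripts in isolated nuclei with a labelled nucleotide, so that a value reflects transcription and not the stored mRNA. The macrophages were differentiated from bone marrow of male C57BL/6 mice aged 8 weeks and plated in serum-free macrophage medium. The groups were untreated cells (0 min) and cells given LPS at 100 ng/ml for 20, 60 or 180 min, each with 2 biological replicates (n = 2 in every group). The labels name no genetic change, and all groups shared strain, sex, age and medium.

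Chemokines are small secreted proteins that guide leukocytes along concentration gradients through G protein-coupled receptors. Ccl3 (MIP-1alpha) and Ccl4 (MIP-1beta) are macrophage inflammatory proteins that attract monocytes, natural killer cells and T cells. Ccl3 acts through Ccr1, among others. Ccl5 (RANTES) binds Ccr1 and Ccr3, among others, and is made by T cells as well as by activated macrophages. Ccl6 and Ccl9 are rodent C-C chemokines of the myeloid lineage that act through Ccr1. In macrophages, LPS is sensed by Tlr4, whose adaptors lead to NF-kB, AP-1 and interferon regulatory factors, and inducible chemokine genes are among the known targets of these factors.

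The members lay within 138.9 kb in the order Ccl5, Ccl9, Ccl6, Ccl3, Ccl4. On mm9 the coordinates in the deposited table were 83339281 to 83344020 for Ccl5 (NM_013653), 83386419 to 83392138 for Ccl9 (NM_011338) and 83401388 to 83406589 for Ccl6 (NM_009139), all on chromosome 11 and the minus strand. Ccl3 (NM_011337) was at 83461345 to 83462880 on the minus strand and Ccl4 (NM_013652) at 83476086 to 83478185 on the plus strand. Ccl3 and Ccl4 therefore pointed away from each other, with 13.21 kb between their starts. The length by which values are scaled is that of the whole gene span, exons and introns together, and each of the 5 genes was listed with 1 copy. The noncoding gene E230016K23Rik (83395563 to 83437195, plus strand) spans the whole of Ccl6 on the opposite strand. In 6 of 8 libraries it held fewer reads than Ccl6 did, for example 461 against 1886 in 0 min replicate 1. In those libraries the reads of Ccl6 were thus not also counted for it in full. At 180 min it held 602 and 62 reads against 571 and 35 for Ccl6.

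RefSeq promoter entries (GRCm38.p6) matched 3 of 5 members, Ccl3, Ccl6 and Ccl9, and Ccl4 and Ccl5 are named only. The 250 bases before each gene start are shown because these 3 genes took 3 different courses after LPS. Capitals mark matches to TATAA, to the AP-1 motif (TGA, any base, TCA), TGACGTCA (CRE), TTGCNNAA (C/EBP), GAGGAAG (PU.1), the core of the interferon-stimulated response element and the NF-kB consensus, searched on both strands. The stretches are chr11:83649379-83649628 for Ccl3, chr11:83593088-83593337 for Ccl6 and chr11:83578637-83578886 for Ccl9, each read from the minus strand.
Ccl3: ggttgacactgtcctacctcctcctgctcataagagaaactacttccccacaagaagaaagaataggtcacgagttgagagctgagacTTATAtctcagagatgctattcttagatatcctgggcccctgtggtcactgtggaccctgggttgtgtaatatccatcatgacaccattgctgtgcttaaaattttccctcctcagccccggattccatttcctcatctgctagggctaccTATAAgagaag
Ccl6: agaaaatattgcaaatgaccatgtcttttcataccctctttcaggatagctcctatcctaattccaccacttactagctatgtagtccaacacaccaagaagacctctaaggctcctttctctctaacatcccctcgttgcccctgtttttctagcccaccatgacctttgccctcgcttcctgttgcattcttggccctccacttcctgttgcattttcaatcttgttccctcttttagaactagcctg
Ccl9: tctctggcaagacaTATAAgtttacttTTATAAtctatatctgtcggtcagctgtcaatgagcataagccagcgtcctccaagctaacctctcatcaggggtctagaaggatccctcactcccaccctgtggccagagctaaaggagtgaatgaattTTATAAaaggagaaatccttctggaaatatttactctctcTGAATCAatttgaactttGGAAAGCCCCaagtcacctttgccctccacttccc
Ccl9 held a match to the NF-kB consensus at -35 from the start, on the opposite strand, and an AP-1 match at -53. Of 32851 RefSeq promoter stretches of this length, 3.9% held the NF-kB consensus and 6.75% held the AP-1 motif. TATAA was found in Ccl9 and Ccl3, on both strands and in part overlapping itself in Ccl9, and in 22.8% of all stretches. Of the 7 motifs the Ccl3 stretch held TATAA alone. Matches beyond the 250 bases, or looser ones, were not searched for, and a part of any motif in the courses was not tested. The Ccl6 stretch held none of the 7 motifs. Those not yet named occur in 1.55% (CRE), 2.98% (interferon element), 9.56% (C/EBP) and 10.6% (PU.1) of all stretches. The share of all stretches that hold none of the 7 was not worked out, so the absence in Ccl6 is not shown to be unusual. The longest run of letters shared by the Ccl6 and Ccl9 stretches was GCCCTCCACTTCC, 13 bases, against 8 for Ccl3 with either. These matches describe letters and do not show that a factor was bound.

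The values are deposited FPKM, in which reads are scaled to the length of the gene and the total of the library. Depth, recovered from the step size of the values, was 44.4 to 61.2 M reads in replicate 1 and 7.96 to 11.1 M reads in replicate 2. Tests covered the 8343 genes whose mean over the libraries reached 0.5 FPKM, all 5 members included. Each change is given as the limma estimate ± SE on the log2(FPKM + 0.1) scale, with Benjamini-Hochberg adjusted p over all 8343 genes, called at an adjusted p under 0.05. The unpaired fit left the replicate number out, and the paired fit held it as a block. The scale understates changes of genes with low values, which among the members concerns Ccl5 at 0 and 20 min. In bulk libraries, fewer cells transcribing a gene and less transcription per cell cannot be told apart. The macrophage markers Csf1r, Emr1 (Adgre1), Cd68, Itgam, Mertk and Fcgr1 were all among the genes tested, and their summed level was 46.1 to 60.9 FPKM at 0 min, 68.5 to 90.9 at 20 min, 23.8 to 38.3 at 60 min and 27.9 to 32.2 at 180 min. Of 7 markers of T and NK cells, which also make Ccl5, none was among the genes tested. Their summed level lay between 0 and 0.137 FPKM over the 8 libraries, and Gzmb was listed at 0 in all of them. Of 6 neutrophil markers, 5 were in the table and S100a8 and S100a9 were tested, and the list had a summed level of 2.16 to 6.48 FPKM at 0 min, 2.11 to 6.58 at 20 min, 3.51 to 10.02 at 60 min and 4.76 to 7.44 at 180 min. No marker of B cells, mast cells and basophils, dendritic cells or stroma was among the genes tested. Their summed levels reached at most 1.10, 0.078, 0.63 and 0.026 FPKM in any library. The part of these marker levels in the results was not tested.

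All 5 of 5 members were called by the limma F-test of any change with time in the unpaired fit, where 24.6% of all genes were called, and 5 of 5 in the paired fit, where 66.1% were. Adjusted p ranged from 8.8e-04 for Ccl5 to 0.0201 for Ccl6 in the unpaired fit. The call for Ccl9 was lost without 0 min replicate 1 (adjusted p = 0.0573) or replicate 2 (0.0848), and after quantile normalization (0.0658). The call for Ccl6 was lost without 20 min replicate 1 (adjusted p = 0.0543), 20 min replicate 2 (0.0577) or 180 min replicate 2 (0.0552), and with no filter on low genes Ccl5 alone kept its call (Ccl3 0.423, Ccl4 0.108, Ccl6 0.0728 and Ccl9 0.188).

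**Figure D1:**
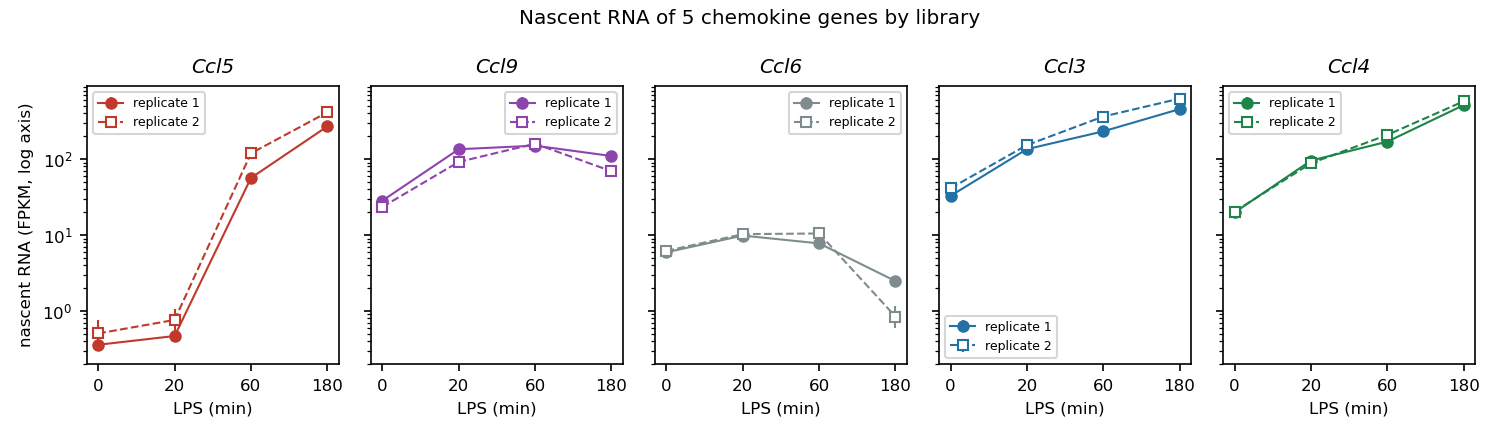
Nascent RNA (FPKM, log axis) of the 5 members against time of LPS (min, evenly spaced categories), 1 panel per gene in chromosomal order, with replicate 1 as filled circles and replicate 2 as open squares. Bars are exact 95% Poisson intervals of the read number and cover counting error only. Ccl3 and Ccl4 climbed through all time points, Ccl5 stood below 1 FPKM until 20 min and above 56 FPKM from 60 min, Ccl9 was highest at 60 min, and Ccl6 was lowest at 180 min.

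Ccl3 and Ccl4 were already transcribed before LPS and stood higher at each later time. Ccl3 was at 32.8 and 41.4 FPKM in 0 min replicates 1 and 2, 135 and 153 at 20 min, 232 and 363 at 60 min, and 455 and 625 at 180 min. The 4 groups did not overlap, and replicate 2 was the higher at every time. By FPKM, Ccl3 was at rank 51 and 34 among all listed genes at 0 min and at rank 3 and 2 at 180 min. Against 0 min it stood 1.96 ± 0.38 higher at 20 min (adjusted p = 0.205 unpaired and 0.00272 paired), and it rose by 2.97 ± 0.38 at 60 min and 3.85 ± 0.38 at 180 min (0.00500 and 0.00106 unpaired). The steps from 20 to 60 min and from 60 to 180 min, at 1.01 and 0.88, passed in the paired fit (0.0161 and 0.0223) and not in the unpaired fit (0.210 and 0.207).

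Ccl4 was at 19.8 and 20.4 FPKM at 0 min, 95.6 and 88.2 at 20 min, 170 and 208 at 60 min, and 513 and 576 at 180 min. Its groups did not overlap either, and its replicates lay closer together than those of Ccl3. It rose by 3.22 ± 0.31 at 60 min and 4.75 ± 0.31 at 180 min (adjusted p = 0.00267 and 4.3e-04 in the unpaired fit). At 20 min it stood 2.19 ± 0.31 higher (0.0784 unpaired and 0.00160 paired). The largest step of Ccl4 after 20 min was the last, 1.53 ± 0.31 from 60 to 180 min (0.0324 unpaired and 0.00155 paired). Relative to each replicate's level at 180 min, Ccl4 had reached 18.6% and 15.3% at 20 min and 33.1% and 36.1% at 60 min, and Ccl3 had reached 29.7% and 24.4%, then 50.9% and 58.1%.

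Ccl5 was close to silent until 20 min and among the most transcribed genes at 180 min. It was at 0.359 and 0.506 FPKM at 0 min and 0.468 and 0.762 at 20 min, values that overlap, from 104, 22, 126 and 33 reads. The exact 95% Poisson intervals, which cover counting error only, were 0.293 to 0.435 and 0.317 to 0.767 FPKM at 0 min and 0.390 to 0.557 and 0.525 to 1.07 at 20 min. At 60 min it was at 56.4 and 119 FPKM and at 180 min at 269 and 412 FPKM, with no overlap between these groups or with the earlier ones. Replicate 2 was the higher at every time, by 1.08 on the log2 scale at 60 min. In fold terms Ccl5 at 60 min stood 157-fold and 235-fold above 0 min in replicates 1 and 2, and at 180 min 750.0-fold and 815-fold. Its rank by FPKM went from 9945 and 8783 at 0 min to 7 and 7 at 180 min.

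The change of Ccl5 from 0 to 20 min was 0.41 ± 0.47 (adjusted p = 0.997 unpaired and 0.362 paired), and the interval of 20 to 60 min held a rise of 6.87 ± 0.47 (0.00622 unpaired). From 60 to 180 min it rose by a further 2.02 ± 0.47 (0.0484 unpaired and 3.6e-04 paired). Against 0 min it rose by 9.30 ± 0.47 at 180 min (3.6e-04 unpaired). T and NK cell markers were at 0 to 0.137 FPKM in sum in the same libraries, with the highest sum at 180 min. Their part in the level of Ccl5 was not tested.

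Ccl9 had its highest deposited level at 60 min. It was at 28.3 and 23.4 FPKM at 0 min, 135 and 91.7 at 20 min, 150 and 160 at 60 min, and 110 and 69.3 at 180 min. In both replicates it was highest at 60 min, the 60 min group lay above all others, the 20 and 180 min groups overlapped, and 0 min lay below all others. In replicate 1 it had reached 89.8% of its highest level by 20 min and in replicate 2 57.5%. It rose by 2.58 ± 0.38 at 60 min (adjusted p = 0.00788 unpaired) and was still 1.75 ± 0.38 above its starting level at 180 min (0.0146 unpaired). At 20 min it stood 2.10 ± 0.38 higher (0.176 unpaired and 0.00257 paired). The difference of -0.83 ± 0.38 from 60 to 180 min passed in the paired fit (0.0340) and not in the unpaired fit (0.227). The step from 20 to 60 min, at 0.48, passed in neither (0.621 and 0.218). Of 11 alternatives to the unpaired fit, 1, the paired fit, called the difference from 60 to 180 min. The median over all genes was -0.39 in that comparison. With median-ratio scaling Ccl9 stood 2.91 and 2.50 above 0 min at 60 and 180 min.

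Ccl6 ended below its starting level. It was at 5.93 and 6.19 FPKM at 0 min, 9.83 and 10.3 at 20 min, 7.76 and 10.5 at 60 min, and 2.48 and 0.845 at 180 min. The 20 and 60 min groups overlapped, the 0 min group lay below them, and both 180 min libraries lay below every other. The value of 180 min replicate 2 came from 35 reads, with an exact 95% Poisson interval of 0.589 to 1.18 FPKM that does not reach replicate 1. Ccl6 fell by 1.98 ± 0.48 from 0 to 180 min (adjusted p = 0.0222 unpaired and 0.00247 paired) and fell by 2.55 ± 0.48 from 60 to 180 min (0.0270 and 0.00173). The values at 20 and 60 min, 0.72 ± 0.48 and 0.57 ± 0.48 above 0 min, passed in neither fit (0.997 and 0.512 unpaired, 0.351 and 0.283 paired).

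By comparison, the members were called as follows. At 20 min against 0 min, 0 of 5 were called in the unpaired limma fit, where 0.108% of all genes were called higher. Before adjustment 3 had p under 0.05 in that limma fit, a count whose share over all genes was not worked out. In the paired fit 3 were higher, Ccl3, Ccl4 and Ccl9, where 2.98% of all genes were called and 2.3% were called higher. The fit by voom on recovered read numbers also called 3, where 45 of 8343 genes were called. The median change of the 5 members was 1.96, beside -0.20 over all genes tested.

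At 60 min against 0 min, 4 of 5 were called higher in each fit, all but Ccl6, beside 13.9% of all genes called unpaired, 5.07% higher and 8.8% lower, and 39.6% paired, 11.7% higher. The median change was 2.97 against -0.29 over all genes. The call for Ccl9 was lost without 0 min replicate 1 (adjusted p = 0.0509) or replicate 2 (0.0581), and those for Ccl3 and Ccl9 when only the compared groups were fitted (0.0559 and 0.0511). With no filter Ccl3, Ccl4 and Ccl9 lost the call (0.348, 0.129 and 0.0992) and Ccl5 kept it.

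At 180 min against 0 min, the same 4 were called higher and Ccl6 lower in each fit. Of all genes, 32.3% were called unpaired, 8.93% higher and 23.4% lower, and 65.8% paired, 14.2% higher and 51.6% lower. The median over all genes was -0.69, and median-ratio scaling, which sets it near 0, moved each member upward. Ccl3, Ccl4, Ccl5 and Ccl9 then stood at 4.59, 5.49, 9.97 and 2.50, and Ccl6 at -1.28 with an adjusted p of 0.0753, or 0.0252 with the replicate number as a block as well. No member changed sign against 0 min at any time under this scaling or quantile normalization. The unpaired call for Ccl6 was also lost without 0 min replicate 1 (0.0822), 0 min replicate 2 (0.0903) or 180 min replicate 2 (-1.26, 0.0682). That for Ccl9 was lost without 0 min replicate 1 (0.0566), 0 min replicate 2 (0.0887) or 180 min replicate 1 (0.0575), and after quantile normalization, where the change was 0.83 (0.171). With no filter Ccl3, Ccl6 and Ccl9 lost the call (0.156, 0.0608 and 0.161), and Ccl4 and Ccl5 kept it.

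From 20 to 60 min, Ccl5 was the member called in the unpaired fit, where 5.74% of all genes were called, 2.28% higher and 3.46% lower. The paired fit called Ccl3, Ccl4 and Ccl5 higher, where 23.9% of genes were called, 9.29% higher. The unpaired call for Ccl5 was lost without 20 min replicate 1 (adjusted p = 0.0849) or replicate 2 (0.0888), and when only the compared groups were fitted (0.0729). From 60 to 180 min the unpaired fit called Ccl4 and Ccl5 higher and Ccl6 lower, beside 7.99% of all genes, 4.08% higher and 3.92% lower. The paired fit called Ccl3, Ccl4 and Ccl5 higher and Ccl6 and Ccl9 lower, beside 37.4%, 10.5% higher and 26.9% lower. The unpaired calls for Ccl4 and Ccl5 were lost whichever of the 8 libraries was left out (adjusted p from 0.0597 to 0.271), and that for Ccl6 was kept without 0 min replicate 1 or 180 min replicate 1 alone. All 3 were also lost with no filter (Ccl4 0.601, Ccl5 0.140 and Ccl6 0.0964) and with only the compared groups fitted (0.158, 0.134 and 0.0945). Quantile normalization ended those for Ccl4 (0.228) and Ccl5 (0.134), and median-ratio scaling (0.0710) and a pseudocount of 0.01 (0.0542) ended that for Ccl5. These comparisons share libraries, so they are not independent of each other.

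Whether the members differed from each other was tested on their log2 difference within each library, which does not depend on the library total. For each of the 10 pairs of members, an exact permutation test of the F statistic over all 105 divisions of the libraries into 4 groups of 2 was used, with Benjamini-Hochberg adjustment over the 10 pairs. It called 8 of 10 pairs, with adjusted p from 0.0190 to 0.0238 by the exact permutation test. The pairs not called were Ccl3 with Ccl4 and Ccl3 with Ccl9. With the times permuted within each replicate number, which allows 24 arrangements and no p under 0.0417, Ccl3 with Ccl9 was also called (adjusted p = 0.0463, exact permutation test). Each of the 9 pairs then called stood at that smallest p. The adjusted value thus rests on how many pairs reached it, and the pairs share genes.

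The pairs differed in kind. Ccl3 exceeded Ccl5 by 6.13 ± 0.05 on the log2 scale at 0 min (mean ± SD, n = 2), by 7.68 ± 0.30 at 20 min, by 1.82 ± 0.30 at 60 min and by 0.68 ± 0.11 at 180 min. The gap thus first widened and then nearly closed. Ccl3 exceeded Ccl9 by 0.21 and 0.82 at 0 min, 0.0036 and 0.74 at 20 min, 0.63 and 1.19 at 60 min, and 2.05 and 3.17 at 180 min. That gap was narrowest at 20 min in both replicates and was widest at 180 min. Ccl6 minus Ccl9 was -2.07 ± 0.24, -3.46 ± 0.44, -4.09 ± 0.24 and -5.81 ± 0.55 at 0, 20, 60 and 180 min, a gap that was wider at each later time in both replicates.

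Ccl3 and Ccl4, the divergent neighbours, came closest to a fixed ratio. Ccl3 exceeded Ccl4 by 0.72 and 1.02 at 0 min, 0.50 and 0.79 at 20 min, 0.45 and 0.80 at 60 min, and by -0.17 and 0.12 at 180 min. Replicate 2 lay above replicate 1 at each time, and the lowest value of each replicate was at 180 min. From 0 to 180 min the difference changed by -0.895 in replicate 1 and by -0.90 in replicate 2. The test gave p = 0.0857 (exact permutation test, adjusted p = 0.0857), and 0.0833 with times permuted within replicate numbers, where the smallest p is 0.0417. With so few arrangements the test does not show that the 2 genes act alike.

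**Figure D2:**
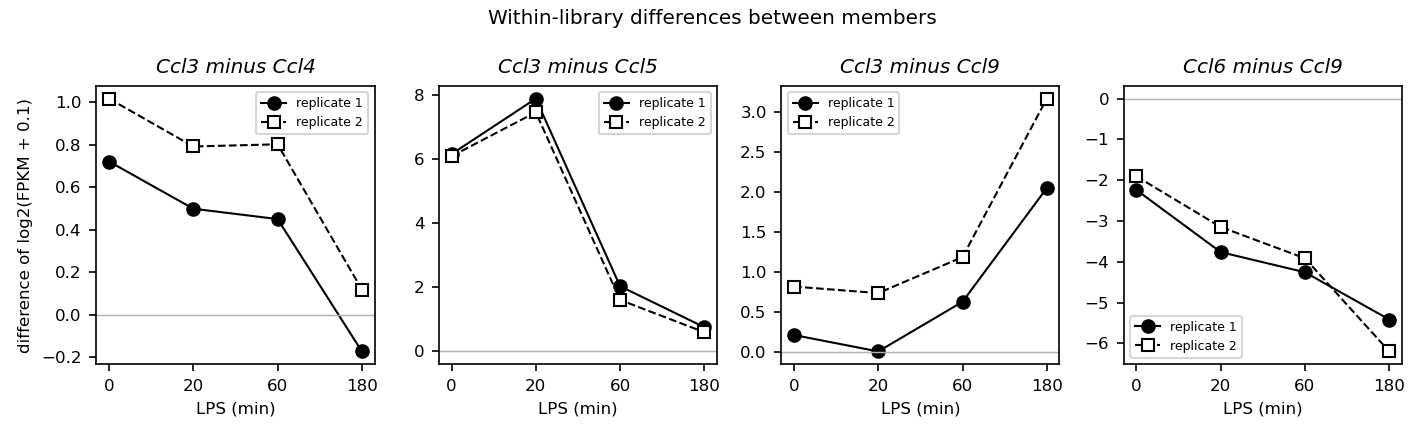
Difference of log2(FPKM + 0.1) between 2 members within each library (vertical axes, which differ in scale) against time of LPS (min, evenly spaced categories), for 4 of the 10 pairs, with replicate 1 as filled circles and replicate 2 as open squares. Ccl3 minus Ccl4 stayed between -0.17 and 1.02, whereas Ccl3 minus Ccl5 fell from a mean of 7.68 at 20 min to 0.68 at 180 min.

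The make-up of the summed level of the 5 genes shifted with time. The sum was 87.3 and 91.9 FPKM at 0 min, 376 and 344 at 20 min, 616 and 860 at 60 min, and 1350 and 1684 at 180 min, with no overlap between groups. Ccl9 made up 32.5% and 25.5% of it at 0 min and 8.13% and 4.11% at 180 min. Ccl5 went from 0.411% and 0.551% to 20.0% and 24.5%, and Ccl6 from 6.79% and 6.74% to 0.183% and 0.0502%. Ccl3 held 33.7% to 45.0% in all 8 libraries, and Ccl4 went from 22.7% and 22.2% to 38.0% and 34.2%. At 0 min the order by level was Ccl3, Ccl9, Ccl4, Ccl6 and Ccl5 in both replicates, and no gene overlapped its neighbour in that order. At 20 min Ccl3 and Ccl9 were nearly level in replicate 1 (135.1 and 134.8 FPKM), and Ccl3 led in replicate 2. At that time Ccl9 and Ccl4 overlapped, and Ccl6 and Ccl5 followed. At 60 min the order was Ccl3, Ccl4, Ccl9, Ccl5 and Ccl6 with no overlap. At 180 min Ccl3 and Ccl4 overlapped, followed by Ccl5, Ccl9 and Ccl6 without overlap.

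**Figure D3:**
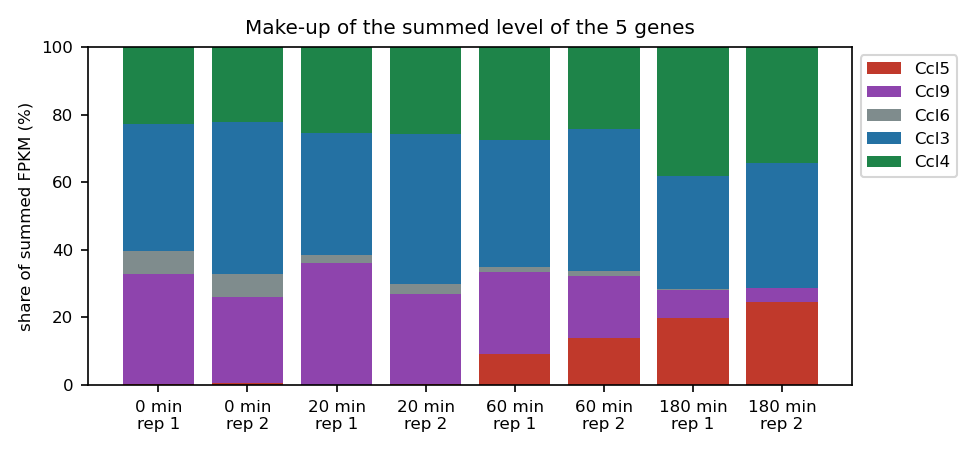
Share of the summed FPKM of the 5 members (%) held by each, 1 bar per library in order of time (min) and replicate. Ccl9 shrank from 25.5% to 32.5% of the sum at 0 min to 4.11% to 8.13% at 180 min, while Ccl5 went from under 1% to between 20.0% and 24.5%.

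Within 250000 bases of the outermost members the table listed 17 other genes, of which 8 were tested. At 180 min against 0 min, 3 of the 8 were called higher and 1 lower in the unpaired fit, and 4 and 2 in the paired fit. Of all genes, 8.93% were higher and 23.4% lower unpaired, and 14.2% and 51.6% paired. Of the 3, Heatr9 and Wfdc18 passed the filter on mean level only through their 180 min libraries, so their calls are no support and their values are given without a test. Heatr9, whose function is not well described, starts 3.68 kb beyond the end of Ccl5 on the same strand. It was at 0.011 and 0 FPKM at 0 min, 0 and 0.011 at 20 min, 0.375 and 0.276 at 60 min, and 5.30 and 4.56 at 180 min. Like Ccl5 it was at or near 0 until 20 min and higher at 60 and again at 180 min, at a far lower level.

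On the other side, beyond Ccl4, lay Wfdc17 and Wfdc18, which encode small secreted proteins of the whey acidic protein family. Wfdc17 was at 1.60 and 1.87 FPKM at 0 min and 32.4 and 27.6 at 180 min, a rise of 4.03 ± 0.33 (adjusted p = 6.9e-04 unpaired). Wfdc18 was at 0.291 and 0.185 FPKM at 0 min and 1.81 and 1.55 at 180 min. The noncoding gene AA465934, at the far end of the window, fell by 1.87 ± 0.37 (0.0106). Ap2b1, a clathrin adaptor subunit, and Taf15, an RNA-binding protein, were called in neither fit at 180 min (0.290 and 0.660 unpaired, 0.0962 and 0.523 paired). Heatr6 stood 0.75 ± 0.28 higher, which passed in the paired fit alone (0.0815 unpaired and 0.0135 paired). Ccl6 was thus lower at 180 min between members that were higher, with Ccl9 on its one side and Ccl3 on the other.

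**Figure D4:**
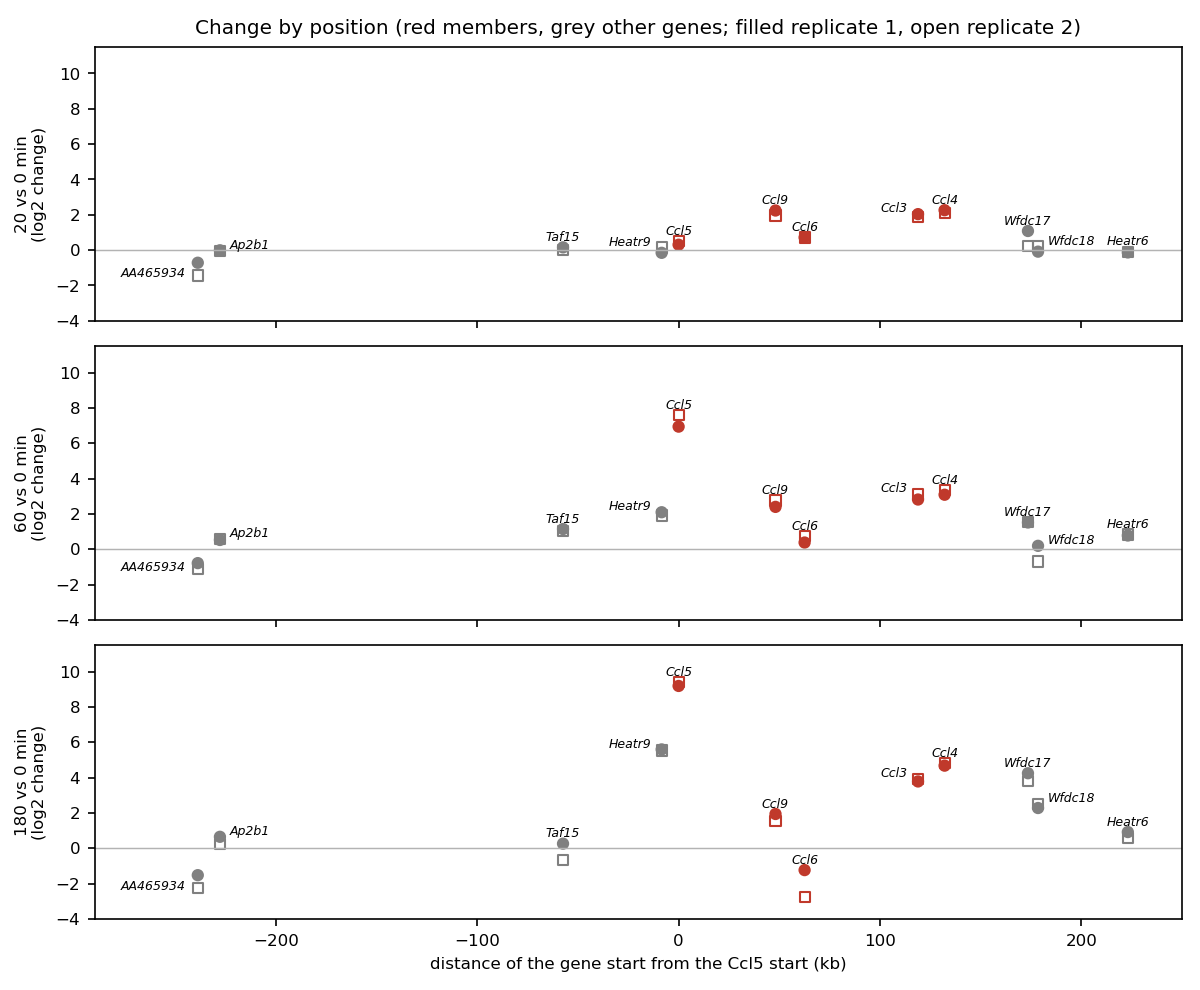
Change of log2(FPKM + 0.1) from 0 min within each replicate number at 20, 60 and 180 min (rows) against the distance of each gene start from that of Ccl5 (kb), for the 5 members (red) and other tested genes of the window that are named here (grey), with replicate 1 filled and replicate 2 open. At 180 min the largest values were those of Ccl5 (9.20 and 9.41) and Heatr9 (5.60 and 5.54), and Ccl6 lay at -1.23 and -2.73. Heatr9 was at 0.011 and 0 FPKM at 0 min, so the size of its values depends on the added 0.1.

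Ccr1 and Ccr3 are receptors for these ligands. Ccr1 had 0.854 and 5.43 FPKM before LPS and 0.419 and 1.13 after 180 min (adjusted p = 0.339 unpaired and 0.00272 paired). It was lower at 180 min in each replicate, but replicate 2 at 180 min still stood above replicate 1 at 0 min. Ccr3 had 0.242 and 0.404 FPKM before LPS, 0.972 and 2.47 after 20 min, and 0.656 and 1.68 after 60 min. Ccr3 passed the filter on mean level only through these 20 and 60 min libraries. Its calls are therefore no support, and its values are given without a test. At 60 min against 0 min Ccr1 stood at -1.05 ± 1.17 (adjusted p = 0.631 unpaired and 0.0250 paired). Ccr1l1 and the scavenger receptors Ackr1 and Ackr2 did not pass the filter.

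Of 4 genes that bind, store or cleave these chemokines, 3 were tested, and 2 were called higher at both 60 and 180 min in the unpaired fit, where 5.07% and 8.93% of all genes were. Sdc4, a heparan sulfate proteoglycan of the cell surface, had 5.38 and 3.23 FPKM before LPS and 86.0 and 37.4 at 20 min. It rose by 4.03 ± 0.53 at 60 min (adjusted p = 0.00531 unpaired). Srgn, the proteoglycan of secretory granules, rose by 3.49 ± 0.58 (0.0116). Sdc1, another heparan sulfate proteoglycan, had 0.530 and 0.186 FPKM before LPS and 1.60 and 0.5 at 60 min, without which it would not have passed the filter. Dpp4, the protease that trims Ccl5, was at 0.003 to 0.026 FPKM and was not tested.

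Among 15 other C-C chemokines, 5 were tested. At 60 min, 3 of the 5 were called higher in the unpaired fit (5.07% of all genes), and 4 higher and 1 lower in the paired fit (11.7% and 27.9%). Ccl7 rose by 3.90 ± 0.74 and Ccl2 by 3.69 ± 0.31. At 180 min 4 were called higher and Ccl25 lower in each fit, beside 8.93% and 23.4% of all genes unpaired. Ccl22 and Ccl12 passed the filter on mean level only through their libraries from 60 min on, so their calls are no support, and are given by level, which was 0.023 and 0.019 FPKM at 0 min and 3.07 and 2.50 at 60 min for Ccl22. Ccl12 was at 0.042 and 0.421 FPKM at 0 min and 3.08 and 7.36 at 180 min. Ccl2, which attracts monocytes through Ccr2, was at 4.69 and 6.05 FPKM at 0 min, 76.9 and 63.3 at 60 min and 27.9 and 28.1 at 180 min, so that its highest level was at 60 min, as for Ccl9.

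Of 18 transcription factors reported at chemokine promoters, all were tested. At 20 min 0 were called in the unpaired limma fit, where 0.108% of all genes were called higher. In the paired fit 8 were called higher, beside 2.3% of all genes. Before adjustment 8 had p under 0.05 in the unpaired limma fit, a count whose share over all genes was not worked out. At 60 min 7 were called higher and 2 lower unpaired, and 11 and 4 paired. Beside this, 5.07% and 8.8% of all genes were called higher and lower unpaired, and 11.7% and 27.9% paired. Among the factors higher at 60 min were the interferon regulatory factor Irf1, at 3.42 ± 0.39, and the NF-kB subunits Rel and Nfkb1 at 3.14 ± 0.31 and 3.03 ± 0.31. At 180 min 8 were called higher and 3 lower, beside 8.93% and 23.4% of all genes, with Irf1 at 3.93 ± 0.39, Irf7 at 3.56 ± 0.38 and Fos, an AP-1 subunit, at -3.44 ± 0.34. Atf3, a bZIP factor, was not called at 60 or 180 min (adjusted p = 0.761 and 0.366). The list's median change was 1.06, 1.15 and 1.01 at 20, 60 and 180 min, beside -0.20, -0.29 and -0.69 over all genes.

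In the path from LPS to these factors, 11 of 11 genes were tested. At 20 min the unpaired limma fit called 0, where 0.108% of all genes were called higher. The paired fit called Cd14 higher, beside 2.3% of all genes. Before adjustment 2 had p under 0.05 in the unpaired limma fit, a count also without a share over all genes. At 60 min the calls were 1 higher and 1 lower unpaired and 4 and 2 paired, and at 180 min 2 and 1 unpaired and 4 and 3 paired, beside the same shares of all genes. At 60 min Cd14, the LPS coreceptor, was called higher (2.33 ± 0.41) and Tlr4 lower (-2.13 ± 0.32). At 180 min Cd14 (1.30 ± 0.41) and Tbk1, a kinase that activates interferon regulatory factors (1.02 ± 0.26), were called higher and Irak4, a kinase of the MyD88 branch, lower (-1.25 ± 0.27). Ticam1, the adaptor of the other branch, was not called at 60 or 180 min (adjusted p = 0.602 and 0.679).

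The genes whose values followed each member most closely were found by Pearson correlation of log2(FPKM + 0.1) over the 8 libraries, which share the replicate difference and the 4 time points. These values are descriptive. The genes were picked by this correlation, so a course shared with the member follows from the choice. Ccl4 was second nearest to Ccl3 (r = 0.988), between H2-M2, a class I-like gene (0.992), and Casp4, an inflammatory caspase (0.988). Ccl3 was in turn nearest to Ccl4, followed by Ptgs2, the inducible cyclooxygenase (0.986), and Tbk1 (0.982). Nearest to Ccl5 were Lpar1, a lysophosphatidic acid receptor (0.996), Itga4, an integrin subunit (0.995), and Il27, a cytokine subunit (0.994). Il27 was at 0.181 and 0.447 FPKM at 0 min and 0.273 and 0.390 at 20 min. It was at 8.03 and 10.4 at 60 min and 20.1 and 45.7 at 180 min. Lpar1 and Il27 passed the filter on mean level only through their libraries from 60 min on.

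Nearest to Ccl9 were Tnfsf9, a ligand of the TNF family (0.996), Sqstm1, an autophagy receptor (0.987), and Cd83, found on mature dendritic cells (0.982). Tnfsf9 was at 3.47 and 3.17 FPKM at 0 min, 76.8 and 47.2 at 20 min, 98.7 and 103 at 60 min, and 47.9 and 21.8 at 180 min. As in Ccl9, replicate 1 was the higher at 20 and 180 min and both replicates were highest at 60 min. This likeness is no support, since Tnfsf9 was picked as the gene most like Ccl9. Nearest to Ccl6 were Airn, a long noncoding RNA (0.983), Ddx3x, an RNA helicase (0.980), and Extl2, a glycosyltransferase (0.978). Airn was at 2.64 and 3.32 FPKM at 0 min and 0.733 and 0.211 at 180 min. Between members, r ranged from -0.592 for Ccl5 with Ccl6 to 0.988 for the adjacent Ccl3 and Ccl4. Ccl6 and Ccl9, which are also adjacent, had r = 0.188.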

How the data were processed

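Nascent RNA was measured in 8 libraries, 4 time points with 2 replicates each. The table that the authors deposited holds FPKM for 22753 genes on mm9. The submitters' processing notes list HOMER 4.6 and 4.7, Bowtie2 2.0.5 and CASAVA 1.7, and give no roles. How strand was handled, and which reads made up the library total, is not given in the sources used here. The listed length equalled end minus start in 99.3% of genes. A further 8 columns belong to other samples and entered no step.

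Read numbers were worked out from the FPKM steps of genes of up to 4000 bases, where 97.95 to 100% of low values were whole within 0.1 read, against 20% by chance. The filter, a mean of 0.5 FPKM, left 8343 genes. Limma 3.58.1 in R 4.3.3 was fitted to log2(FPKM + 0.1) with a variance trend and all 4 groups in 1 model, without further scaling. The replicate differences correlated at 0.59 to 0.88 between all 6 pairs of time points, so the replicate numbers were taken to pair the libraries, and the paired value stands beside each printed unpaired value whose call it changed. Pair differences were tested by exact permutation. The procedures were tested on simulated data. Promoter letters are from RefSeq (GRCm38.p6). Alternatives are given in the closing section. Named genes were the 5 members, tested neighbours within 250000 bases, genes of the lists for receptors, ligand handling, other C-C chemokines, transcription factors and the LPS path (up to 3 called with the largest change and 1 not called with the highest FPKM), and the 3 genes most like each member, passing over predicted genes, clone names and small RNAs. Results for 1 receptor and 1 neighbour are not reported here. Further values of listed genes were added after they had been seen. Members and lists were chosen with earlier results of these data known.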

Additional observations from a re-analysis of the deposited data

How the results depend on the processing

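The number of members called depended on the replicate block and on the genes tested. With the replicate block it went from 0 to 3 of 5 at 20 min against 0 min, from 1 to 3 at 60 min against 20 min and from 3 to 5 at 180 min against 60 min. It changed no member's call at 60 or 180 min against 0 min or over the time course. The block with median-ratio scaling gave 3 in the first and 3 in the second of these. The fit by voom on recovered reads gave 3 at 20 min against 0 min and 2 at 60 min against 20 min. At 20 min against 0 min the block with median-ratio scaling called 191 of 8343 genes and voom called 45. At 20 min against 0 min a filter of 1 FPKM and the fit with no variance trend each gave 1, beside 21 and 19 of all genes tested. With no filter on low genes, 1 member was called over the time course in place of 5, beside 2263 of all 22753 genes. At 60 and 180 min against 0 min that setting called 1 and 2 in place of 4 and 5, beside 1672 and 3719 genes. At 180 min against 60 min it called 0 members. With only the compared groups, 2 were called at 60 min against 0 min, beside 394 of all genes tested. That fit called 0 at 60 min against 20 min and 0 at 180 min against 60 min, and quantile normalization gave 1 in the last. Shares of all genes for the other alternative counts are not given here. With 1 library left out, the members called were 4 to 5 over the time course, 0 to 0, 3 to 4 and 3 to 5 at 20, 60 and 180 min against 0 min, 0 to 1 at 60 min against 20 min and 0 to 1 at 180 min against 60 min. The member pairs called went from 8 to between 7 and 8, and were 8 with either other pseudocount and 9 with the block. The change of Ccl6 from 20 to 60 min, -0.15, lay between -0.37 and 0.061 with 1 library left out, and was positive without 60 min replicate 1. Of single-member values, 280 of those under the other alternatives kept direction and call, 26 lost the call and 19 gained it. With 1 library left out, 202 kept direction and call, 37 lost the call and 1 changed direction. Over all genes, the calls behind the background shares were 2054, 9, 1157, 2696, 479 and 667 in the order of comparisons above, 5516, 249, 3304, 5486, 1994 and 3119 with the block, and as low as 1032, 0, 243, 1242, 0 and 102 with 1 library left out. At the depth of replicate 2, 1 read of Ccl5 stands for 0.019 to 0.0265 FPKM, which limits its values at 0 and 20 min.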
